A study of Mus musculus with 18 samples.

Results

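ATP-dependent chromatin remodellers use the energy of ATP to slide, evict or exchange nucleosomes, and the genes of 46 of their subunits were examined here for nascent transcription in murine embryonic stem (ES) cells. The genes were found by symbol in the authors' table of protein-coding genes, where all 46 matched a single row of the 21859. They comprise 18 genes of the BAF family, 14 of the CHD family and NuRD, 5 of ISWI, and 9 of INO80, Tip60 and the related SRCAP complex. The cells were E14 ES cells grown in LIF with GSK and MEK inhibitors, and every line carried osTIR1, the plant receptor that lets auxin direct a tagged protein to degradation. In SPT16_AID_V5_Clone1 and SPT16_AID_V5_Clone2, each derived as a clone, the Supt16 gene also carried a C-terminal mini-AID tag and V5 epitopes, while untagged cells carried osTIR1 alone. Each of these 3 lines was treated for 24 h with 0.1% ethanol (EtOH) or with the auxin 3-IAA. In the tagged clones 3-IAA directs the degradation of SPT16, a subunit of the histone chaperone FACT, while untagged cells given 3-IAA control for the auxin itself. The sample labels give 500 nM for 3-IAA, whereas the study's methods give the same number in µM. RNA made during a 5-min pulse of 4-thiouridine was purified and sequenced (TT-seq), and 3 libraries were made per condition, 18 in all.

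The value used for each gene is the authors' baseMean, the mean over the libraries of their comparison of read counts divided by size factors, referred to below as the mean normalized count. It pools control and SPT16-depleted libraries, so it describes how strongly a gene was transcribed across the experiment and not how SPT16 depletion changed it. The authors' columns of fold changes and p-values were not used here, and no value per library entered, so no level below has a standard deviation and no difference between genes was tested. Gene positions and lengths are those of Gencode vM21 on GRCm38, matched by Ensembl identifier. Long genes collect more reads, so genes were compared per kb of exons, and again per kb of the whole gene from its first to its last base, since the sources used here do not say over which of these the reads were counted. Within a pair of genes, a direction is drawn only where both scales had it. The highest and lowest genes of a complex are named per kb of exons, and they can differ per kb of span. As a check of the label, the 8 ES cell markers, among them Pou5f1, Sox2 and Nanog, lay at percentiles 94.6 to 99.9 of all genes with reads per kb of exons. The 8 markers of fibroblasts and other cells, with Col1a1 and Ptprc among them, had mean normalized counts of 1.41 to 25.7, all below the median gene.

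BAF, also named SWI/SNF, slides and evicts nucleosomes at promoters and enhancers, and the form found in ES cells is known for its use of BRG1 (encoded by Smarca4) in place of BRM (Smarca2). NuRD joins the CHD4 ATPase to histone deacetylases, ISWI ATPases space nucleosomes, and the INO80 and Tip60 families move or exchange the histone variant H2A.Z. Transcription of remodeller genes as a whole was high. Of the 46, 35 (76.1%) were in the top 25% of the 20157 genes with reads and 23 in the top 10% by mean normalized count. Their median was 7660, against 421 for all genes with reads. The remodeller genes made up 0.228% of the genes with reads and held 0.894% of the summed mean normalized count. They are also long, with a median span of 58.8 kb against 19.6 kb for all genes with reads. Per kb of exons, the median remodeller gene lay at percentile 85.0 of all genes with reads, and per kb of span at percentile 83.2. On both scales, 24 of the 46 were in the top 25%, where at most 25% of all genes with reads can lie. At the other end, 4 genes were below the median gene on both scales, and they were Smarca2, Smarcd3, Chd3 and Smarca1. For each of these 4, a paralogous gene of the same complex was far more strongly transcribed.

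**Figure D1:**
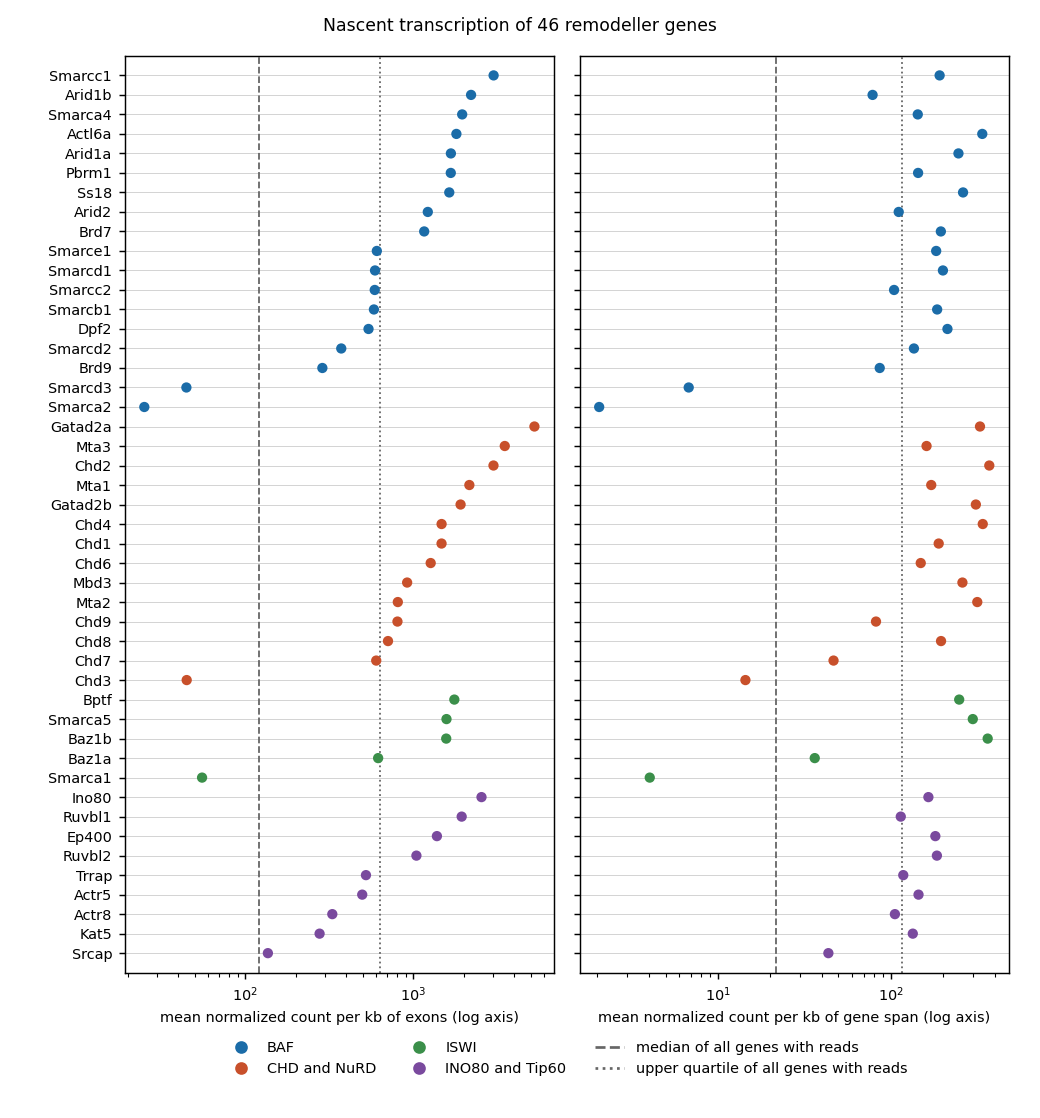
Mean normalized count of each of the 46 remodeller genes per kb of exons (left) and per kb of gene span (right), on log axes, with 1 point per gene coloured by complex. Dashed and dotted lines mark the median and the upper quartile of all genes with reads. Smarca2, Smarcd3, Chd3 and Smarca1 lie to the left of the dashed line in both panels.

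The ATPase genes of BAF differed widely in level. Smarca4 (ENSMUSG00000032187), on chromosome 9 from 21616169 to 21704230, had a mean normalized count of 12662, or 1955 per kb of exons and 144 per kb of span. Smarca2 (ENSMUSG00000024921), on chromosome 19 from 26605050 to 26778322, had a mean normalized count of 358, or 25.1 per kb of exons and 2.06 per kb of span. The level of Smarca4 was thus 78.0 times that of Smarca2 per kb of exons and 69.6 times per kb of span. Smarca4 made up 98.7% of the summed level of both ATPase genes per kb of exons. Smarca2 was the lowest of the 46 genes on both scales.

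Of the core subunits that scaffold BAF, Smarcc1 (BAF155), on chromosome 9 from 110117708 to 110240178, had the highest level of the BAF genes per kb of exons, at 3008. Its paralogue Smarcc2 (BAF170) reached 590 per kb of exons. The ratio of Smarcc1 to Smarcc2 was 5.10 per kb of exons and 1.83 per kb of span, so its direction held on both scales while its size did not. Among the SMARCD genes, Smarcd1 had the highest level, at 592 per kb of exons, followed by Smarcd2 at 373. Smarcd3, which is known for its use in heart and muscle, was at 44.6 per kb of exons and at percentile 40.7 per kb of span. Smarcd1 exceeded Smarcd2 by 1.59 times per kb of exons and by 1.47 times per kb of span. Smarcb1 and Smarce1, core subunits without a paralogue in these lists, were at 583 and 607 per kb of exons, both close to the upper quartile of 638 for all genes with reads. Per kb of span they lay at percentiles 85.3 and 85.0.

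The subunits that set the type of BAF were all transcribed. Arid1a and Arid1b mark canonical BAF, while Arid2, Pbrm1 and Brd7 mark PBAF and Brd9 marks the non-canonical complex. Arid1b, which spans 353 kb on chromosome 17 from 4994332 to 5347656, had a mean normalized count of 27831, the most of the BAF genes. It was above Arid1a per kb of exons, at 2209 against 1675, but below it per kb of span, at 78.8 against 247. No order of Arid1a and Arid1b can therefore be given. Arid2 was below Arid1a on both scales, with 1221 per kb of exons and 112 per kb of span. Pbrm1 was at 1673 per kb of exons and Brd7 at 1162. Brd9 was at 288 per kb of exons, 4.04 times below Brd7, and 2.26 times below it per kb of span. Actl6a (BAF53a), an actin-related subunit, was at percentile 92.3 per kb of exons and 94.5 per kb of span, the highest of the BAF genes on the latter scale. Actl6b, its counterpart in neurons, had a mean normalized count of 5.23, and the ratio of Actl6a to Actl6b was 1470 per kb of exons. Ss18 was at 1638 per kb of exons and 6.94 times above its paralogue Ss18l1. Dpf2, a reader of acetylated histones, was at 542 per kb of exons and 9.21 times above Dpf1, another gene of the neuronal complex. Dpf3, which was not paired with Dpf2 here, was at 239 per kb of exons (percentile 58.3). Per kb of span Dpf3 was at 3.69 (percentile 36.4).

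Of the CHD ATPases, Chd4, the ATPase of NuRD, lay on chromosome 6 from 125095981 to 125130591 and had a mean normalized count of 11826. Per kb of exons it was at 1475, against 44.8 for Chd3 and 75.2 for Chd5, the other ATPases of NuRD. Chd4 held 92.5% of the summed level of the NuRD ATPase genes per kb of exons and 92.3% per kb of span. Chd3, with a mean normalized count of 378, was the lowest on both scales of the 14 CHD and NuRD genes examined, which do not include Chd5. Chd5 was above Chd3 per kb of exons but slightly below it per kb of span, at 14.0 against 14.5. Chd1 and Chd2 are related ATPases, of which CHD1 is known to bind the histone mark of active promoters and to keep ES cell chromatin open. Chd2, on chromosome 7 from 73426638 to 73541830, had the highest mean normalized count of the 46, at 42942, and the highest level per kb of span, at 373. The level of Chd2 was 2.04 times that of Chd1 per kb of exons and 1.96 times per kb of span, with Chd1 at 1474 per kb of exons.

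The CHD7 subfamily, Chd6, Chd7, Chd8 and Chd9, was more even. Levels per kb of exons were 1270 for Chd6, 805 for Chd9, 708 for Chd8 and 602 for Chd7. Per kb of span the order was another, with 196 for Chd8, 150 for Chd6, 82.4 for Chd9 and 46.8 for Chd7. Chd7, the gene mutated in CHARGE syndrome, was the lowest of the 4 on both scales, by 1.18 times below Chd8 per kb of exons and by 4.19 times per kb of span. Chd9 spans 226 kb, Chd7 177 kb and Chd6 162 kb, against 59.6 kb for Chd8.

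The non-catalytic subunits of NuRD were transcribed at high levels. Gatad2a, on chromosome 8 from 69907076 to 69996384, had the highest level of all 46 genes per kb of exons, at 5263 (percentile 99.1). Gatad2b was at 1913 per kb of exons, and while Gatad2a exceeded it by 2.75 times on this scale, the ratio was 1.06 per kb of span. The MTA genes encode the subunits that hold the deacetylases in place. Mta3, on chromosome 17 from 83706163 to 83821516, was at 3505 per kb of exons, Mta1 at 2158 and Mta2 at 809. Per kb of span the order was reversed, with 318 for Mta2, 172 for Mta1 and 162 for Mta3. Mbd3, which tethers the complex and is known for its role in lineage commitment of ES cells, was at 920 per kb of exons and 261 per kb of span. Its paralogue Mbd2 was 3.26 times above it per kb of exons, whereas per kb of span Mbd3 exceeded Mbd2 by 1.57 times.

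ISWI showed the same contrast of ATPases as BAF. Smarca5 (SNF2H), on chromosome 8 from 80698507 to 80739497, had a mean normalized count of 12264 and Smarca1 (SNF2L), on chromosome X from 47809368 to 47892974, one of 339. Per kb of exons the levels were 1577 and 55.3, a ratio of 28.5, and per kb of span the ratio was 73.9. The subunits that partner these ATPases were Bptf of the NURF complex, at 1756 per kb of exons, Baz1b (WSTF) at 1571 and Baz1a (ACF1) at 618. Baz1b was above Baz1a by 2.54 times per kb of exons and by 10.0 times per kb of span. Baz1a shares exonic sequence on the same strand with a predicted coding gene in the annotation, Gm20403. Reads there may have been assigned to neither gene or to only one, so its level is uncertain.

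**Figure D2:**
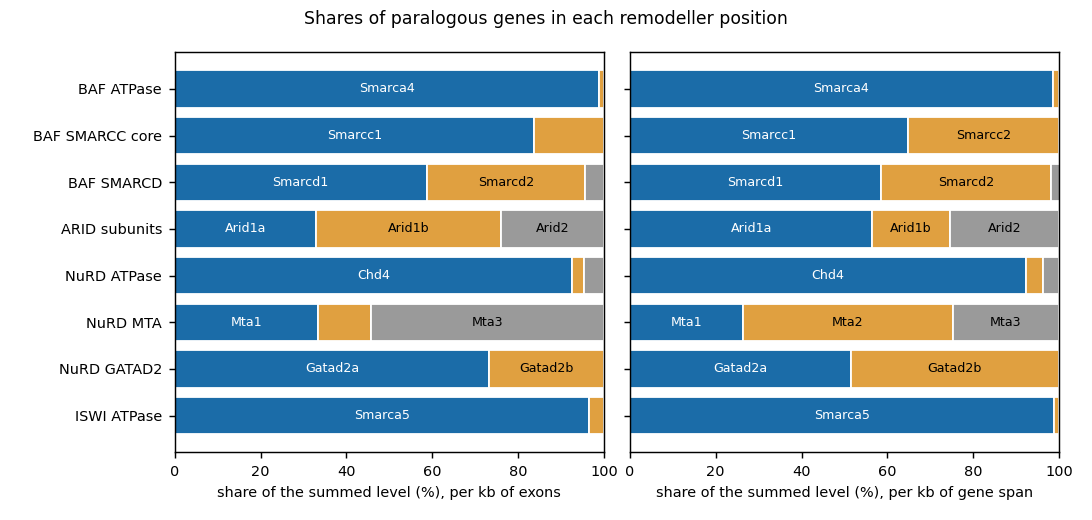
Share of each paralogous gene in the summed mean normalized count of its position in a complex, in percent, per kb of exons (left) and per kb of gene span (right). Segments too narrow for a name in the left panel are, from top to bottom, Smarca2, Smarcc2, Smarcd3, Chd3 followed by Chd5, Mta2 and Smarca1. In the right panel the same segments are unnamed except Smarcc2 and Mta2, which are wide enough there. Smarca4, Chd4 and Smarca5 fill over 92% of their bars in both panels, whereas the shares of the ARID, MTA and GATAD2 genes depend on the scale.

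In INO80, Tip60 and SRCAP, the median percentile was 71.3 per kb of exons and 78.0 per kb of span, the lowest of the 4 groups on both scales, while none of the 9 genes was below the median gene on either. Ino80, the ATPase of its complex, lay on chromosome 2 from 119373042 to 119477687 and was the highest of the 9 genes per kb of exons, at 2548. Per kb of span Ruvbl2 was the highest of the 9, at 186. Actr5 and Actr8, actin-related subunits of INO80, were at 497 and 330 per kb of exons. Ep400, the ATPase of the Tip60 complex, was at 1383 per kb of exons, and Srcap, the related ATPase of the SRCAP complex, at 136. The ratio of Ep400 to Srcap was 10.1 per kb of exons and 4.16 per kb of span. Srcap was the lowest of the 9 on both scales, and its level is uncertain for the same reason as that of Baz1a, since it overlaps the predicted coding gene Gm42715. Ruvbl1 and Ruvbl2 encode AAA+ ATPases that work together in a ring in INO80, SRCAP and Tip60. Ruvbl1 was above Ruvbl2 per kb of exons, at 1942 against 1044, and below it per kb of span, at 115 against 186. Kat5, the acetyltransferase of Tip60, had a mean normalized count of 972, the least of the 9, with 277 per kb of exons. Trrap, the scaffold of Tip60 and other acetyltransferase complexes, was at 523 per kb of exons.

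Over the 24 pairs of paralogous or related genes compared, the direction was the same on both scales in 17 and turned in 7. In 9 pairs the difference was over 4-fold on both scales. These were Smarca4 over Smarca2, Smarcd1 over Smarcd3, Actl6a over Actl6b, Ss18 over Ss18l1, Dpf2 over Dpf1, Chd4 over Chd3, Chd4 over Chd5, Smarca5 over Smarca1 and Ep400 over Srcap. Without replicate values, the spread of these ratios between libraries or conditions is unknown here. Ep400 over Srcap also rests on the uncertain level of Srcap, and at 4.16 per kb of span it lay close to the limit.

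Other subunits of the same complexes, 47 genes, were set beside the 46. All 47 had a mean normalized count of at least 1, as did 17677 of all 21859 genes. Of the 47, 22 were in the top 25% of genes with reads by mean normalized count, and 18 were in the top 25% on both scales per length. Of the other NuRD genes, the histone-binding subunit Rbbp7 was highest, at 3360 per kb of exons, and Chd5 lowest. Of the other BAF genes, Bicral, of the non-canonical complex, was highest at 1857 per kb of exons and Actl6b lowest. For the other ISWI partners, levels per kb of exons ranged from 170 for Chrac1 to 1332 for Baz2b. In the INO80 and Tip60 group they ranged from 94.1 for Mrgbp to 2891 for Epc2. Per kb of span, Baz2a was instead the highest of these ISWI partners. In the INO80 and Tip60 group, Morf4l1 was then the highest and Ino80b the lowest.

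PROMPTs are short unstable RNAs that start near a promoter and run away from the gene, and the authors counted them within 1 kb upstream of each start site on the opposite strand. Their table was normalized on its own. A single low mean normalized count was shared by 102 genes in the gene table (0.0216) and another by 452 PROMPTs in the PROMPT table (0.0266), so values are set side by side by rank only. No length correction was made for PROMPTs. Of the 46 genes, 40 had a PROMPT listed, and Smarcd1, Dpf2, Brd9, Chd2, Ep400 and Ruvbl2 had none. Per the deposited description, windows near another coding transcript were left out, and the start of Brd9 lies 27 bases from that of Trip13 on the other strand. The other 5 had no coding start on the other strand within 1 kb of their outermost Gencode starts. Their nearest upstream ones lay from 10158 (Ruvbl2) to 198556 bases (Chd2) away, and why they have no PROMPT listed was not tested. The RefSeq start of Ruvbl2 lies 3632 bases from its outermost Gencode start, and coding starts around that RefSeq start were not searched. Pbrm1 and Smarcc1 had a PROMPT listed although the coding genes Gnl3 and Dhx30 start 14 and 122 bases from their outermost Gencode starts on the other strand. The RefSeq start of Smarcc1 lies 14316 bases from its outermost Gencode start, and from which start its PROMPT was counted is not given in the sources used here.

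PROMPTs upstream of remodeller genes varied widely, from 0.0327 to 70.8, with a median of 5.17. A mean normalized count of at least 1 was reached by 28 of the 40 (70.0%) and one of at least 10 by 15 (37.5%). Among the 4163 coding genes with a PROMPT that were in the top 25% by level, the shares were 69.9% and 31.4%. The 5 highest PROMPTs were those of Smarcb1 at 70.8, Mta3 at 50.7, Kat5 at 49.9, Arid1b at 46.2 and Mta2 at 41.6. Smarcc1 followed at 40.5. Strongly transcribed genes with low PROMPTs were Ino80 at 0.351, Chd4 at 0.403, Chd6 at 0.425 and Gatad2b at 0.501. Smarca4 had a PROMPT of 0.770 and Arid1a one of 0.669. Of the 4 weakly transcribed genes, Chd3, Smarcd3 and Smarca1 had PROMPTs of 6.87, 4.17 and 1.47, above the median of 1.10 for the PROMPTs of 14403 coding genes, while Smarca2 had one of 0.0327, below it. The value of Smarca2 is at percentile 1.9 of PROMPTs with reads. It is close to the low count of 0.0266 shared by 452 PROMPTs, so it is near the floor. No remodeller PROMPT was listed at 0. Across those 14403 genes, Spearman's rho between the PROMPT and the gene's level per kb of exons was 0.529, and across the 40 remodeller genes it was 0.198. Per kb of span, rho was 0.634 across the 14403 genes and 0.214 across the 40. These values are descriptions across genes, which share libraries and depth and are not independent replicates. The remodeller genes lay mostly in the top 25% by level, a narrower range than that of the 14403 genes. No rho was taken for coding genes of that narrower range, so whether remodeller genes differ in this from other highly transcribed genes was not tested.

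**Figure D3:**
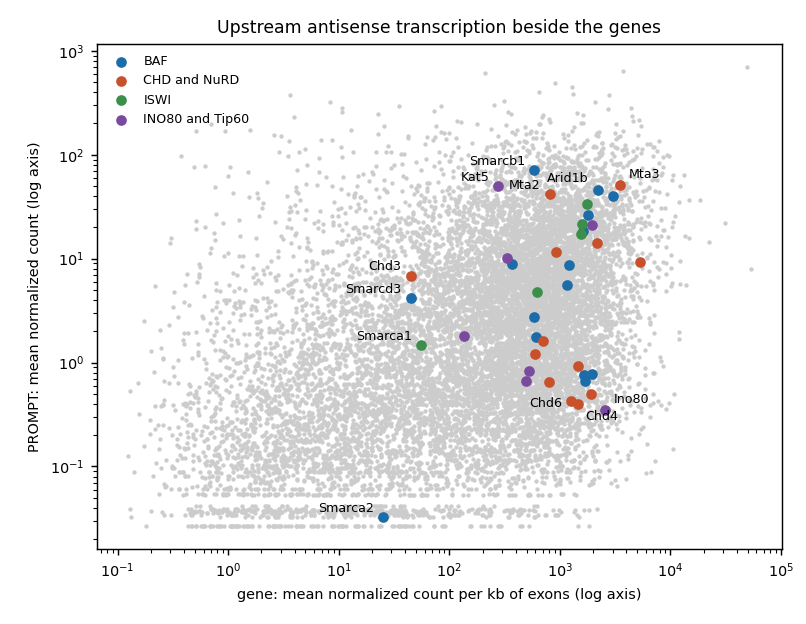
Mean normalized count of the PROMPT against that of its gene per kb of exons, on log axes, for coding genes with a level of at least 1 (grey) and the 40 remodeller genes with a PROMPT (coloured by complex). Genes without PROMPT reads are not drawn. Ino80 and Arid1b, at 2548 and 2209 per kb of exons, have PROMPTs of 0.351 and 46.2.

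The promoters of the 2 genes with the highest and the 2 with the lowest PROMPTs, among the genes whose promoter was found, are shown, so that the sequence around the gene's start can be compared. Where the PROMPTs themselves start was not mapped. RefSeq promoters on GRCm38.p6, from 250 bases before to 50 bases after the start, were found for 35 of the 46 genes, and where a gene had several starts the one nearest its Gencode start was taken. The RefSeq start lay within 1 kb of the outermost Gencode start in 29 of the 35. In the other 6 (Trrap, Actl6a, Ruvbl2, Smarcd2, Smarcc1 and Smarcd3) it lay 1062 to 22409 bases away. Capitals mark motifs that were searched on both strands. The GC box, which SP and KLF factors bind, was searched as GGGCGG. The letters for the box bound by the factor NF-Y were CCAAT. An E-box, the site of MYC and USF proteins, was searched in the form CACGTG. The core of sites for ETS factors was searched as CCGGAAG. The box bound by the TATA-binding protein was searched as TATAAA. The sequences run 5′ to 3′ along the gene's strand. Smarcb1 lies at chr10:75921565-75921864 on the minus strand, Kat5 at chr19:5610045-5610344 on the minus strand, Ino80 at chr2:119477638-119477937 on the minus strand and Smarca2 at chr19:26604910-26605209 on the plus strand.
Smarcb1: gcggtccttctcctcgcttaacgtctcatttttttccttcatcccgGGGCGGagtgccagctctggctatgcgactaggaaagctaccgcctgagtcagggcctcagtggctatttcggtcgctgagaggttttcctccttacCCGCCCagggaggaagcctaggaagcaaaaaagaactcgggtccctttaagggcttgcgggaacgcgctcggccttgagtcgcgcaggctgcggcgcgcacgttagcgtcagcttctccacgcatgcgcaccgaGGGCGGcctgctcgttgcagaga
Kat5: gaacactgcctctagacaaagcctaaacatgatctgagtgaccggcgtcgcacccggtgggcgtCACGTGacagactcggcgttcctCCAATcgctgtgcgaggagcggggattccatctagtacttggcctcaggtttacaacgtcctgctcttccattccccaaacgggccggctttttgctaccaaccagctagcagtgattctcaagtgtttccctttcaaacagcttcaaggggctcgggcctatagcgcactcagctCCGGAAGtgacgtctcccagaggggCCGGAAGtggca
Ino80: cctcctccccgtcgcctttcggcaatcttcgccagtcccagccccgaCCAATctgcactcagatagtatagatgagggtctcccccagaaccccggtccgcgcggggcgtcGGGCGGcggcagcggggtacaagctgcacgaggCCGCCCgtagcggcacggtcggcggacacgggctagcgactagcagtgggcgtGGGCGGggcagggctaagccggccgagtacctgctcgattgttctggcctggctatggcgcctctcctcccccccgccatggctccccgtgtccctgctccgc
Smarca2: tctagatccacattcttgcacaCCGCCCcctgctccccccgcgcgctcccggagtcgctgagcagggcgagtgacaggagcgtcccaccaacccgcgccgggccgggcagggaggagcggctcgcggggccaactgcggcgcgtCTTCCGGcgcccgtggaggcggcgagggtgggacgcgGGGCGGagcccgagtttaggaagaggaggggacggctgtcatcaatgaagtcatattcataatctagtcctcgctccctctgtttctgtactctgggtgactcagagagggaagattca

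The windows of Smarcb1 and Ino80 each held 3 GC boxes, in spite of PROMPTs of 70.8 and 0.351. Kat5 held no GC box but 2 ETS cores, 1 CCAAT box and 1 E-box. Smarca2 held 2 GC boxes and 1 ETS core. The GC content of these windows was 60.7% for Smarcb1, 57.0% for Kat5, 70.0% for Ino80 and 65.7% for Smarca2.

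Over the 35 promoters, the median GC content was 64.7%, against 52.7% for all 27025 promoters and 63.3% for the 4068 of coding genes in the top 25% by level. The median number of CpG dinucleotides was 27, against 7 for all promoters and 24 for those of highly transcribed genes. The GC box was in 33 of 35 (94.3%), against 35.9% of all promoters and 72.1% of those of highly transcribed genes. A CCAAT box was in 13 (37.1%, against 39.5% for highly transcribed genes) and an ETS core in 6 (17.1%, against 20.4%). The E-box and TATAAA were each in 3 of the 35 (8.57%), against 11.5% and 5.92% for highly transcribed genes. Over the 29 promoters within 1 kb of the Gencode start, the median GC content and number of CpG were again 64.7% and 27, and the GC box was in 27 (93.1%). Such matches describe letters in the window and were not tested as sites of binding.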

How the data were processed

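TT-seq libraries of E14 ES cells were analysed from the tables of results that the authors deposited for 24 h. Per the study's methods and the labels, reads went through Trim Galore and STAR (mm10, unique alignments only), and the authors made strand-specific counts with featureCounts (the labels also name HTSeq), and ran DESeq2. Tool versions and the annotation used for counting are not given in the sources used here. For its downstream analyses the study names a later Gencode release than the vM21 used here for lengths. The signal used is the authors' deposited baseMean, the mean over libraries of counts divided by size factors, which has no replicate error. The remaining columns, the authors' shrunken log2 fold changes, their standard errors, p-values and adjusted p-values, hold their comparison of SPT16-depleted with control cells and were not used, and no comparison between conditions was made. The depth of each library is unknown here, as no count per library was used. Tables of putative eRNAs and of distal DNaseI hypersensitive sites carry no coordinates and were left out.

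The remodeller genes, the lists and the pairs were chosen with earlier results of these data known. Lengths were the union of exons and the span in Gencode vM21, matched for 99.81% of genes by Ensembl identifier. Exonic length was taken first because log10 baseMean followed log10 exonic length (coefficient 1.30) more than log10 span (0.191) over 17664 genes (baseMean 1 or more), in a fit tested on simulated data. Percentiles are the percent of genes with reads that had a lower value. All genes of the list were named, with both genes of each pair, the highest and lowest of each complex and of the other subunits per complex, and the 5 highest PROMPTs. The genes with low PROMPTs and the sixth highest were singled out after their values were seen. For promoters of other genes with several RefSeq starts, the first listed was taken. Alternatives were the other length, no length correction, limits on the level and, chosen after seeing the data, promoters within 1 kb of the Gencode start. The software was Python 3.11.15 with matplotlib 3.10.9, scipy 1.17.1, pandas 2.3.3 and numpy 2.4.6.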

Additional observations from a re-analysis of the deposited data

How the results depend on the processing

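The median remodeller gene lay at percentile 89.0 by mean normalized count among genes with reads, at 87.5 among genes with a level of at least 1, at 85.0 per kb of exons and at 83.2 per kb of span. The median PROMPT level of the remodeller genes lay at percentile 76.3 among PROMPTs with reads and at 49.3 among those with a level of at least 1. The coefficient of exonic length exceeded that of span by 1.11, and by 0.90 over genes with a level of at least 10. The first gene of a pair was higher in 17 of 24 pairs per kb of exons, in 17 with no length correction and in 22 per kb of span. Which gene came first was set in the list of pairs, and some genes, such as Chd8, are in several pairs. The counts therefore show only how the choice of length moves them. Per kb of span, 7 log2 ratios changed sign, to 1.65 for Arid1a over Arid1b, 0.39 for Chd8 over Chd6, 1.25 for Chd8 over Chd9, 0.88 for Mta2 over Mta1, 0.97 for Mta2 over Mta3, 0.65 for Mbd3 over Mbd2 and -0.69 for Ruvbl1 over Ruvbl2. The alternative differs only in the length that divides the counts. With no length correction, none of the 24 turned. Among the 29 promoters within 1 kb of the Gencode start, an alternative chosen after seeing the data, the GC box was in 93.1% against 94.3% of 35, CCAAT in 41.4% against 37.1% and the ETS core in 17.2% against 17.1%. No library could be left out, since each gene has a single value over all libraries. No paired analysis was possible because the columns used carry no replicate number.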
